A study of Mus musculus with 2 samples.

Results

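The interferon regulatory factors Irf1, Irf2, Irf3, Irf5, Irf7, Irf8 and Irf9 and the interferon targets Bst2, Ifitm2 and Ifitm3 were followed in mouse Extensively Self Renewing Erythroblasts (ESREs), precursors of red cells that can divide for long periods in culture. These 10 genes were chosen by symbol, and each had a row among the 25791 rows of the table. The maturation group was ESREs after 1 day of maturation, and the expansion group was proliferating ESREs. Both groups are labelled C57/bl6, and the series title names transgenic β-Yac mice, so no group without that background was compared. RNA was sequenced, and the table gives 1 value per gene and group in FPKM, which is the number of fragments per length of transcript and per size of library. The series text speaks of duplicates, but no replicate values were used here, so the differences below were not checked against replicates, and the depth is unknown.

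Interferon regulatory factors are transcription factors that bind DNA through a conserved domain with repeated tryptophans. Irf3 and Irf7 are activated by the kinases Tbk1 and Ikbke when sensors detect foreign nucleic acid, and they switch on interferon genes. Secreted interferon then acts through cell surface receptors and Janus kinases, and Stat2 joins Irf9 in the complex ISGF3. ISGF3 binds the interferon-stimulated response element (ISRE) of target genes, while interferon gamma acts through the gamma-activated site (GAS). Irf1 activates many of the same targets, Irf2 can act against it, Irf5 works downstream of Toll-like receptors, and Irf8 is a factor of myeloid and dendritic cells. Bst2, also called tetherin, holds budding enveloped viruses on the cell surface, and Ifitm2 and Ifitm3 are membrane proteins that hinder virus fusion. Several targets, among them Ifitm3, can be expressed without added interferon in some stem cells.

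The genes fell into an expressed set and a nearly silent set in both groups. Bst2, Irf3, Irf9 and Irf2 reached at least 1 FPKM in at least 1 group, the level taken here as expressed, and the other 6 were below it in both. Thus 4 of 10 genes were expressed, against 35.9% of all rows. The lowest expressed value was 2.09 FPKM in maturation and 2.62 FPKM in expansion. The highest value among the other 6 was 0.225 FPKM in maturation and 0.244 FPKM in expansion, so the gap between the sets was 9.30-fold in maturation and 10.7-fold in expansion. No gene crossed that gap between the groups.

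**Figure D1:**
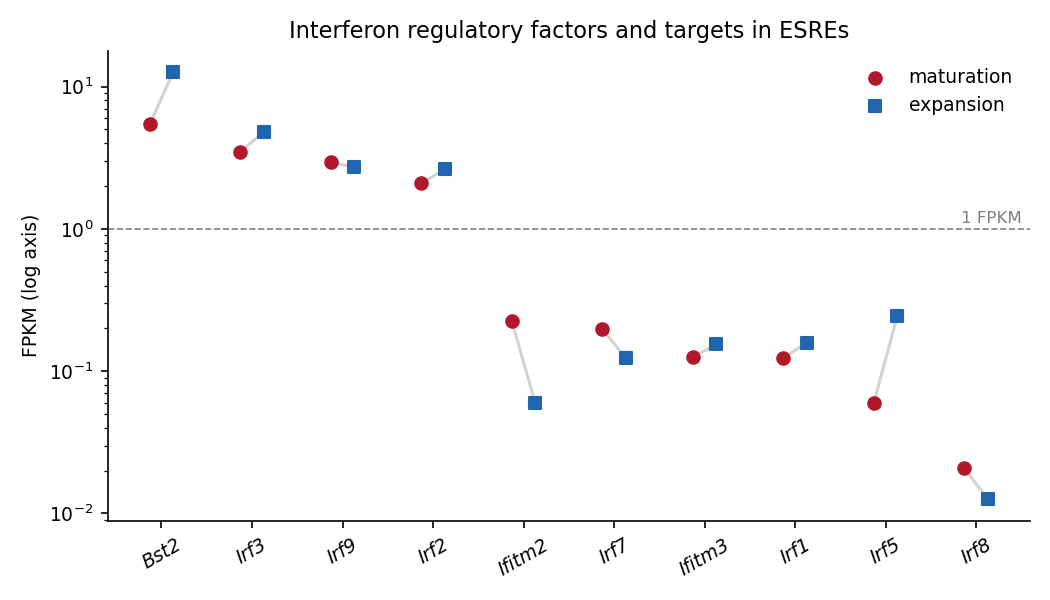
FPKM of the 10 genes on a log axis, with circles for maturation and squares for expansion, 1 deposited value each, ordered by the maturation value; the dashed line marks 1 FPKM. Bst2, Irf3, Irf9 and Irf2 lie above the line in both groups, between 2.09 and 12.7 FPKM, and the other 6 lie between 0.0125 and 0.244 FPKM.

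The 3 expressed factors carried nearly all of the measured interferon regulatory factor RNA, which largely restates the cut at 1 FPKM. Irf2, Irf3 and Irf9 together held 95.5% of the FPKM summed over the 7 factors in maturation and 94.96% in expansion. That sum over 7 factors was 8.93 FPKM in maturation and 10.7 FPKM in expansion. Irf3 was the highest of the 7 in both groups, and the order of Irf9 over Irf2 was the same in both. With 1 value per group, it cannot be said which neighbours in this order differ beyond their spread.

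Irf3, the factor that responds first to the sensors of viral RNA and cytosolic DNA, was at 3.49 FPKM in maturation and 4.80 FPKM in expansion. It was 1.37-fold lower in maturation, with a log2 ratio of -0.37, where log2 ratios are maturation over expansion with a pseudocount of 1 added to each FPKM. The median log2 ratio of the 9263 expressed rows was -0.25, so Irf3 lay close to the middle of all expressed genes. Irf3 lies on chromosome 7 (mm9, 52253030 to 52258218), only 80 bases from Bcl2l12, which was at 1.70 FPKM in maturation and 2.91 FPKM in expansion. Of the 50-base stretches of Irf3 transcripts, 1.48% also occurred in transcripts of Bcl2l12, so the pair can share few reads.

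Irf9, the DNA-binding subunit of ISGF3, was the 1 expressed member with a higher value in maturation. It was at 2.94 FPKM in maturation and 2.72 FPKM in expansion, which is 1.08-fold, with a log2 ratio of 0.08. Of the expressed rows, 20.3% had a higher log2 ratio. Its share of the FPKM of Irf2, Irf3 and Irf9 was 34.5% in maturation and 26.8% in expansion, while the share of Irf3 was 41.0% in maturation and 47.4% in expansion. Its partner Stat2 had a lower value in maturation, at 0.785 FPKM in maturation and 1.56 FPKM in expansion. Irf9 was thus 3.75 times the level of Stat2 in maturation and 1.74 times in expansion, on the per-length FPKM scale. The Irf9 row lies on chromosome 14 (mm9, 56222822 to 56228867).

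Irf2, which can occupy the same elements as Irf1 and lower their activity, was at 2.09 FPKM in maturation and 2.62 FPKM in expansion. Its log2 ratio was -0.23, near the median of all expressed rows, and it became 0.02 once ratios were centred on that median. The row lies on chromosome 8 (mm9, 47825099 to 47932812), and no 36-base stretch of its transcripts occurred in transcripts of another gene. Irf1, its counterpart and an early target of interferon gamma, was at 0.124 FPKM in maturation and 0.158 FPKM in expansion, on chromosome 11 (mm9, 53583516 to 53591876). Irf1 therefore stood far below Irf2 in both groups.

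The factors tied to induced or myeloid responses were nearly silent. Irf7, which amplifies the interferon response and is itself a target of ISGF3, was at 0.199 FPKM in maturation and 0.123 FPKM in expansion. Irf5 was at 0.0601 FPKM in maturation and 0.244 FPKM in expansion, a 4.05-fold lower value at a level where FPKM may rest on few fragments. Irf8 was the lowest of the 10 genes in both groups, at 0.0209 FPKM in maturation and 0.0125 FPKM in expansion. Irf4, a lymphoid family member, was below 0.01 FPKM in each group. Of the 6 nearly silent genes 3 had a higher and 3 a lower value in maturation, and no direction is read from values so close to 0.

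Bst2 was the highest of the 10 genes and the 1 with the largest difference. It was at 5.43 FPKM in maturation and 12.7 FPKM in expansion, 2.33-fold lower in maturation, with a log2 ratio of -1.09. In maturation 13.2% of all rows had a higher FPKM than Bst2, and in expansion 7.96%. Bst2 was the only expressed member at least 2-fold lower by its log2 ratio, 1 of 4, against 6.70% of all expressed rows. None was at least 2-fold higher, against 3.13% of those rows. A count of 1 gene says little about the set, and relative to the median of all expressed rows the log2 ratio of Bst2 was -0.84, inside 2-fold. Its FPKM was 1.56 times that of Irf3 in maturation and 2.64 times in expansion. Bst2 lies on chromosome 8 (mm9, 74058158 to 74061336), and no 36-base stretch of its transcripts occurred in transcripts of another gene. The rows closest to Bst2 in log2(FPKM + 1) over the 2 groups were Dtx3, Acot7 and Hexa, at distances of 0.052 to 0.075, and nothing is read from this likeness of 2 values.

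**Figure D2:**
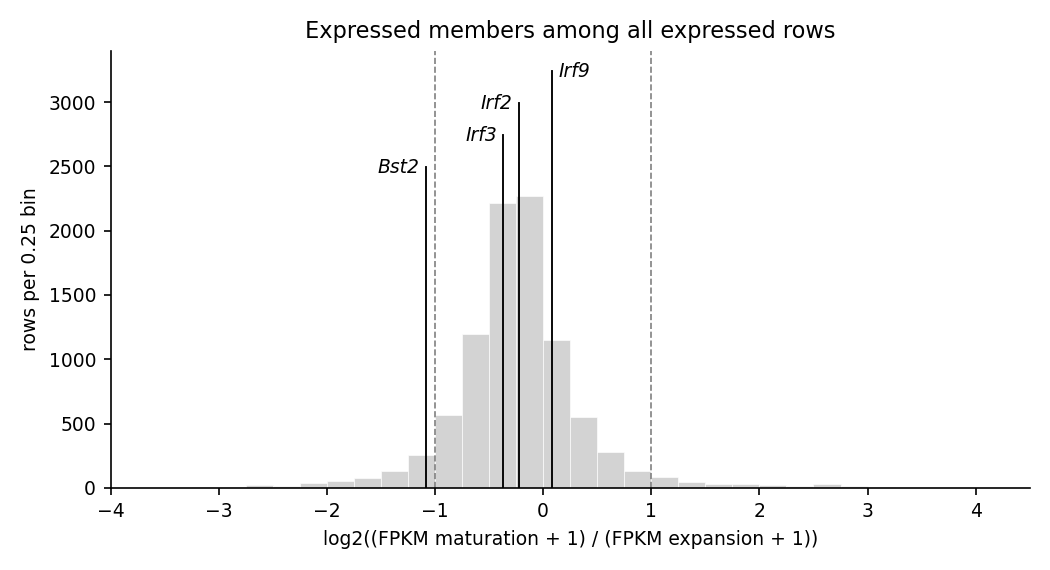
Number of expressed rows per bin of the log2 ratio of maturation over expansion (pseudocount 1), drawn from -4 to 4.5, with vertical lines at the values of Bst2, Irf3, Irf2 and Irf9; dashed lines mark 2-fold. Irf3, Irf2 and Irf9 lie in the main body of the distribution at -0.37, -0.23 and 0.08, and Bst2 lies just past the 2-fold line at -1.09.

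Over the 4 expressed members the median log2 ratio was -0.30, beside -0.25 for all expressed rows. Of the 4, 3 had a log2 ratio below 0, as did 74.1% of all expressed rows, and 2 lay below the median of all rows. The set as a whole therefore lay near the background, with Bst2 alone at some distance from it. In bulk RNA, fewer cells that carry a transcript and less of it per cell cannot be told apart.

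Ifitm2 and Ifitm3 differed from Bst2 in level, although all 3 are classical interferon targets. Ifitm2 was at 0.225 FPKM in maturation and 0.0597 FPKM in expansion, and Ifitm3 was at 0.126 FPKM in maturation and 0.154 FPKM in expansion. The other 5 IFITM rows were below 0.04 FPKM in each group, and Ifitm6 was listed at 0 in both. The Ifitm2 value is uncertain for a further reason, because 48.5% of the 50-base stretches of its transcripts also occurred in transcripts of other genes, mostly predicted ones such as Gm45717. For Ifitm3 that share was 10.02%, and it was 0.662% for 75-base stretches. The labels used here do not give the read length.

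Ifitm2 (mm9, 148140738 to 148141860), Ifitm3 (148195489 to 148196643) and Irf7 (148449088 to 148452300) lie near each other on chromosome 7. The IFITM rows begin 308 kb (Ifitm2) and 254 kb (Ifitm3) before Irf7. All 5 IFITM rows of this stretch and Irf7 were below 0.25 FPKM, and of the 12 rows between Ifitm6 and Irf7, 4 were expressed and 8 were not. Phrf1, only 437 bases before Irf7, was at 3.18 FPKM in maturation and 3.83 FPKM in expansion. Rnh1, which encodes the ribonuclease inhibitor, was at 9.15 FPKM in maturation and 13.5 FPKM in expansion, and Hras1 was at 5.49 FPKM in maturation and 4.27 FPKM in expansion. Ptdss2, a phosphatidylserine synthase gene, was at 12.6 FPKM in maturation and 2.73 FPKM in expansion. Rows on the IFITM side of Ptdss2, among them B4galnt4, Pkp3, Sigirr and Ano9, were below 1 FPKM in both groups, so of Ifitm2, Ifitm3 and Irf7 only Irf7 had an expressed row next to it.

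Promoter sequence was compared with these levels, since the 10 genes include known targets of ISGF3. RefSeq windows of 250 bases before and 50 after each annotated start (GRCm38.p6) were found for 10 of 10 genes, 13 windows in all because Irf1, Irf8 and Irf9 have a pair of starts each. The ISRE core was searched as GAAANNGAAA and the GAS as TTCNNNGAA, on both strands, with N any base. An ISRE core occurred in 4 of the 13 windows, those of Bst2, Irf2, Ifitm2 and Ifitm3, and in 3.44% of all 32851 windows. A GAS occurred in 5 of the 13 windows, those of Bst2, Irf2, Ifitm3, Irf8 (with 2) and Irf1, and in 8.30% of all windows. At least 2 ISRE core matches occurred in the windows of Bst2 and Ifitm3, and in 0.225% of all windows. These are letter matches and not shown binding sites, and the 2 motifs overlap each other in the Bst2 and Ifitm3 windows.

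The stretches with an ISRE core are shown because they contrast an expressed pair, Bst2 and Irf2, with a nearly silent pair, Ifitm2 and Ifitm3. Capitals mark the ISRE core, and positions are counted from the annotated start, with -1 the base before it. The Bst2 stretch is the whole 250 bases before its start (chr8:71537473-71537722, minus strand). The others are -250 to -201 of Irf2 (chr8:46739495-46739544, plus strand), -70 to -21 of Ifitm2 (chr7:140955982-140956031, minus strand) and 1 to 30 of Ifitm3 (chr7:141010715-141010744, minus strand).
Bst2: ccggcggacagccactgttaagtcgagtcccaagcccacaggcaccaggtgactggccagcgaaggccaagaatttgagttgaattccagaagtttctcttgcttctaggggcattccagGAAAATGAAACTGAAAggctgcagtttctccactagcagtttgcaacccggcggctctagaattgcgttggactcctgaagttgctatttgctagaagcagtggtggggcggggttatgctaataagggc
Irf2: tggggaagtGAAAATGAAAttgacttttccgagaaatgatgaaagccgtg
Ifitm2: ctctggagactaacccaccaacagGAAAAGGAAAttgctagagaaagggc
Ifitm3: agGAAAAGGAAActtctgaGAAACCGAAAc

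In Bst2 a pair of overlapping matches ran from -130 to -115, and a GAS match from -136 to -128 overlapped the first of them. Irf2 had its ISRE core match at -241 to -232, and Ifitm2 at -46 to -37. In Ifitm3 the matches lay just after the annotated start, at 3 to 12 and at 20 to 29. The Bst2 and Ifitm3 windows thus each held a pair of ISRE core matches, while Bst2 was at 5.43 FPKM in maturation and 12.7 FPKM in expansion and Ifitm3 was below 0.16 FPKM in each group. Irf3 and Irf9, both expressed, had neither motif in these windows, and the same held for the nearly silent Irf5 and Irf7. Irf7 is a target of ISGF3, so a missing match here does not show that an element is absent.

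**Figure D3:**
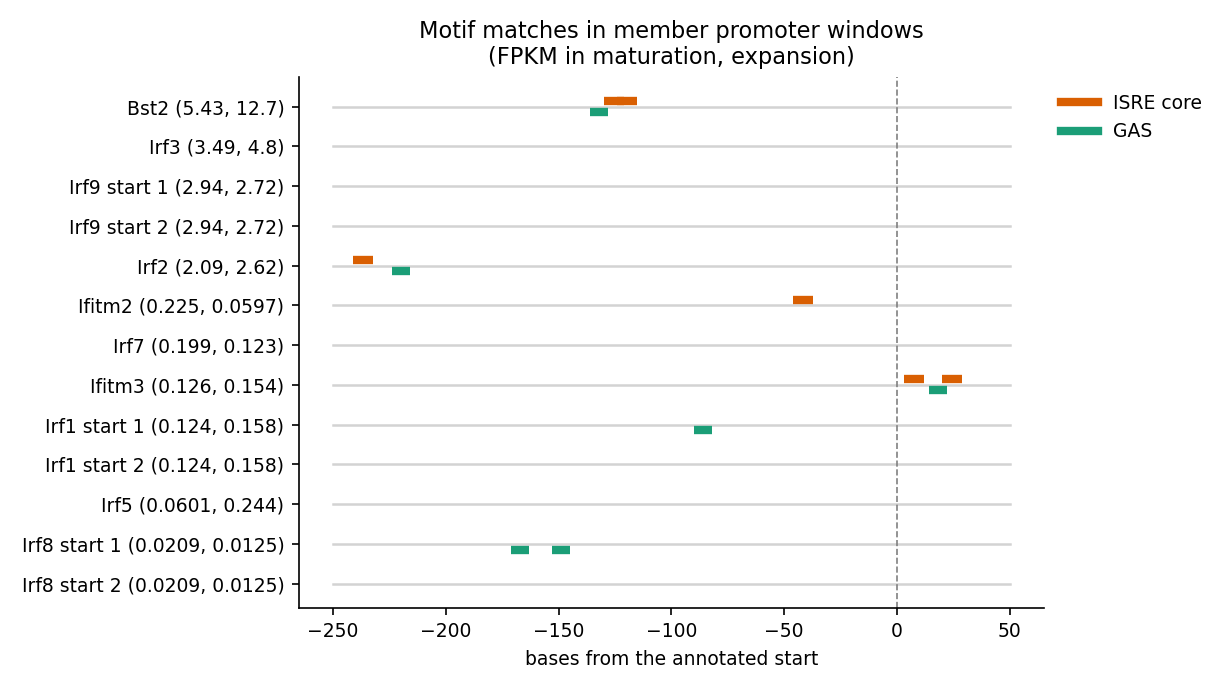
Positions of ISRE core and GAS matches in the promoter windows of the 10 genes, in bases from the annotated start, with FPKM in maturation and expansion after each name. Bst2 and Ifitm3 both have 2 ISRE core matches, while Bst2 is in the expressed set and Ifitm3 in the nearly silent one.

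The genes upstream of the factors were mostly expressed and mostly within 2-fold. In the lists of receptors, receptor signalling, sensors and activating kinases, 33 of 48 genes were expressed, which is 68.8% beside 35.9% of all rows. In these counts, as for the members, at least 2-fold means a log2 ratio with the pseudocount of 1 past 1 or -1, which leaves out some weakly expressed genes whose plain FPKM ratio is larger. Of the 33, 5 (15.2%) were at least 2-fold lower in maturation, against 6.70% of all expressed rows, and none was higher, against 3.13%. Their median log2 ratio was -0.40. The lower count was 2 relative to the median of all rows, against 3.92% of those rows. It was 0 with a pseudocount of 5 and 7 with 0.1, beside 148 and 1303 of all 9263 expressed rows. Of the 5 lower genes, Ifngr1, Ifngr2, Socs1 and Unc93b1 reached 1 FPKM only in expansion. The interferon genes themselves were not expressed, as all 21 rows were below 1 FPKM. The highest of these was Ifnz, at 0.156 FPKM in maturation and 0.267 FPKM in expansion. Among receptors, the subunits of the interferon gamma receptor were lower, Ifngr1 at 0.395 FPKM in maturation and 3.42 FPKM in expansion and Ifngr2 at 0.521 FPKM in maturation and 2.30 FPKM in expansion. Ifnar2, a subunit of the type I receptor, was at 4.37 FPKM in maturation and 4.20 FPKM in expansion, and Ifnar1 was at 0.822 FPKM in maturation and 1.26 FPKM in expansion.

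Of 11 expressed receptor signalling genes, 2 (18.2%) were at least 2-fold lower, against 6.70% of all expressed rows. Stat3 was at 1.08 FPKM in maturation and 5.20 FPKM in expansion, and Socs1, a feedback inhibitor of Janus kinases, was at 0.330 FPKM in maturation and 1.79 FPKM in expansion. The kinases and adaptors that act on Irf3 and Irf7 had 10 of 12 genes expressed and none with a log2 ratio beyond 2-fold, although Irak4 was at 0.932 FPKM in maturation and 2.09 FPKM in expansion, a plain FPKM ratio of 2.24-fold lower. Tbk1 was at 1.74 FPKM in maturation and 2.70 FPKM in expansion, while its relative Ikbke was below 0.08 FPKM in each group. Of 7 expressed sensors and adaptors 1 (14.3%) was at least 2-fold lower, again beside 6.70% of all expressed rows. It was Unc93b1, which carries Toll-like receptors to endosomes, at 0.188 FPKM in maturation and 1.68 FPKM in expansion. The genes in the list of IRF2 binding proteins were all expressed and all had log2 ratios below the median of all rows. A list of 3 genes says little about direction. Among them Irf2bp2 was at 1.54 FPKM in maturation and 3.26 FPKM in expansion. Irf2bpl was at 0.142 FPKM in maturation and 1.85 FPKM in expansion. It was the 1 of 3 (33.3%) at least 2-fold lower by the log2 ratio, against 6.70% of all expressed rows. Irf2bpl reached 1 FPKM only in expansion, so the filter itself favours a lower value in maturation for it.

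Other interferon targets ran from nearly silent to expressed, without a clear gap at 1 FPKM. Parp9, for example, was at 0.709 FPKM in maturation and 0.989 FPKM in expansion. Over the type I, type II and antigen presentation lists, 28 of 75 genes were expressed, which is 37.3% beside 35.9% of all rows. Of the 28, 6 (21.4%) were at least 2-fold lower, against 6.70% of all expressed rows, and 1 (3.57%) was at least 2-fold higher, against 3.13%. Their median log2 ratio was -0.69. Of the lower genes Socs1, Psmb8 and Tap1 reached 1 FPKM only in expansion, and the higher gene, Ube2l6, only in maturation. Oas1a, Oas1g, Tor3a, Gbp6 and Psmb9 also counted as expressed only through expansion. The filter itself thus favours part of these counts and of the median, and no direction of the targets is read from them. Relative to the median of all rows tested, 4 were at least 2-fold lower and 1 higher, against 3.92% and 4.53% of those rows. With a pseudocount of 5 the lower count was 1, and with 0.1 it was 12, beside 148 and 1303 of all 9263 expressed rows. Some targets were nearly silent, as Mx1, Ifit1, Ifit3, Rsad2 and Usp18, which were singled out here after their values were seen, were all below 0.04 FPKM in each group. Ifit2, of the same family as Ifit1 and Ifit3, was at 0.609 FPKM in maturation and 0.355 FPKM in expansion. Of 16 expressed type I targets, Lgals9, which encodes galectin-9, had the lowest ratio, at 9.21 FPKM in maturation and 60.0 FPKM in expansion. Ube2l6, the ubiquitin-like conjugating enzyme for Isg15 and also a gene of late red cell maturation, was the 1 higher gene, at 5.33 FPKM in maturation and 0.546 FPKM in expansion. Isg15 itself was at 0.756 FPKM in maturation and 0.340 FPKM in expansion. In antigen presentation 9 of 10 genes were expressed. Psmb8, Tap2 and Tap1 were at least 2-fold lower by the log2 ratio, 3 of 9 (33.3%), against 6.70% of all expressed rows. Psmb8 and Tap1 reached 1 FPKM only in expansion. Psmb9, at 0.584 FPKM in maturation and 2.01 FPKM in expansion, was 3.43-fold lower by plain FPKM and just inside 2-fold with the pseudocount. Psmb8, an immunoproteasome subunit, was at 0.362 FPKM in maturation and 4.31 FPKM in expansion.

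**Figure D4:**
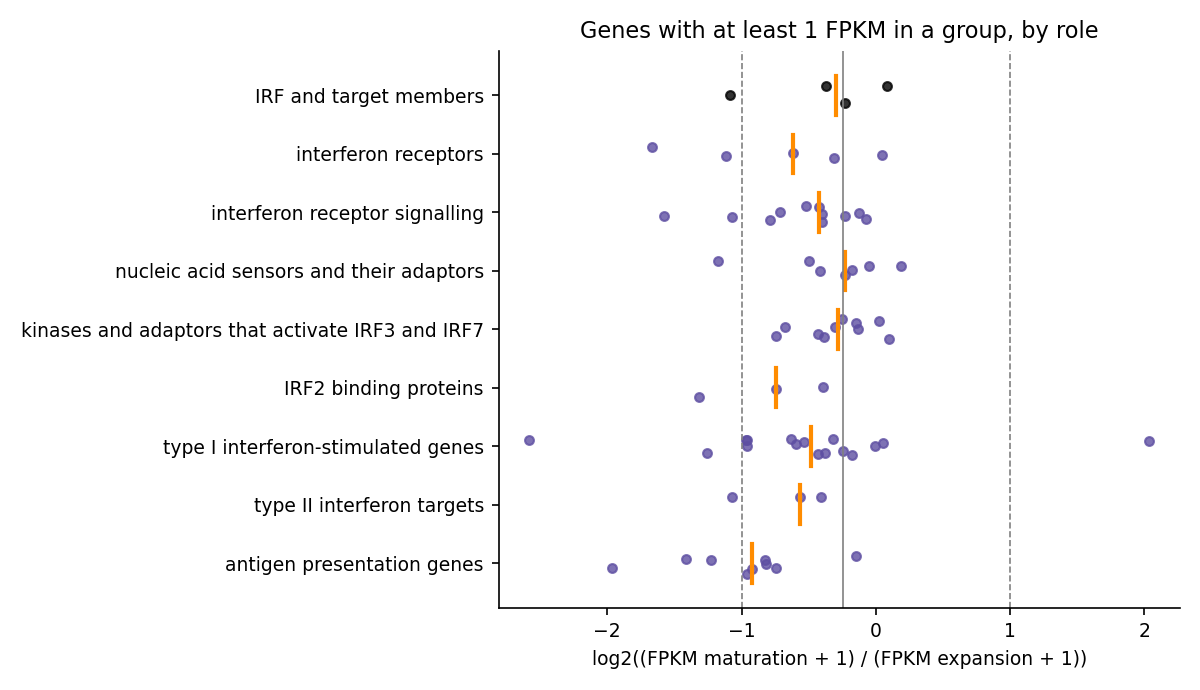
Log2 ratio of maturation over expansion (pseudocount 1) for each expressed gene, by role, with orange bars for list medians, a solid line at the median of all expressed rows and dashed lines at 2-fold. The 4 expressed members have a median of -0.30, the receptors -0.62, the type I targets -0.48 and the antigen presentation genes -0.92. The sensors have -0.23 and the activating kinases -0.28, near the -0.25 of all expressed rows. Receptor signalling has -0.42, the IRF2 binding proteins -0.74 and the type II targets -0.57.

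Markers of other cells were examined because Bst2, Irf5 and Irf8 are also expressed by immune cells. Erythroid markers were present, with 10 of 10 expressed. Of 18 macrophage and dendritic cell markers 1 was expressed, Cd68, and the list summed to 0.680 FPKM in maturation and 1.47 FPKM in expansion. No lymphocyte, granulocyte or endothelial and stromal marker was expressed. Of 7 mast cell and basophil markers 4 were expressed, among them Ms4a2 at 0.0903 FPKM in maturation and 7.07 FPKM in expansion. All 4 were at least 2-fold lower in maturation, against 6.70% of all expressed rows. Ms4a2, Hdc and Fcer1a reached 1 FPKM only in expansion, so the filter itself favours a lower value in maturation for them. Cma1, below 1 FPKM, was at 0.288 FPKM in maturation and 0.192 FPKM in expansion. That list summed to 2.72 FPKM in maturation and 24.8 FPKM in expansion, while Mcpt8 was listed at 0 in both groups and Cpa3 at 0 in maturation. The part of any of these cell types or transcripts in the level of Bst2 or in its difference was not tested.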

How the data were processed

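RNA-seq values of proliferating ESREs and of ESREs after 1 day of maturation were used. The authors deposited FPKM per gene row, 1 value per group, as read from the file headers. The submitters' processing notes list Cuffdiff 2.0.2 and mm9. The aligner, annotation, strandedness and the pooling of duplicates are not stated in the labels used here, and each value was taken as the authors' pooled value. FPKM depends on the modelled transcript length and divides reads among similar genes. Log2 ratios used a pseudocount of 1, rows with at least 1 FPKM in a group counted as expressed, and a fold of 2 described size, with no test. Starts in the table count from 0, since 190 of 396 microRNA rows matched their RefSeq length only on that count and 0 matched if counted from 1, and they are given from 1. Of 216 genes in 17 lists, 206 matched by symbol, 8 by RefSeq synonym and 2 had no unique match and were not analysed here. Some genes are not reported here. The members and lists were chosen with earlier results of these data known. Named genes are all members and up to 4 genes per list with the largest absolute log2 ratio, a rule from which the text gives a selection; further pathway partners and neighbours were chosen after their values were seen. Shared stretches of 36, 50 and 75 bases were counted in protein-coding GENCODE M21 transcripts of each member, against all other genes' transcripts on either strand. Promoter sequences are from RefSeq (GRCm38.p6), and their coordinates are not those of mm9. The calculation of ratios and counts was tested on simulated data. Python 3.11.15, pandas 2.3.3 and numpy 2.4.6 were used.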

Additional observations from a re-analysis of the deposited data

How the results depend on the processing

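With a pseudocount of 5, with ratios centred on the median of all expressed rows, or with FPKM rescaled to the sum outside short RNAs (which held 25.5% of the summed FPKM in maturation and 17.7% in expansion), the count of members at least 2-fold lower was 0 in place of 1, since the log2 ratio of Bst2 became -0.76, -0.84 and -0.98. It was 1 with a pseudocount of 0.1, with no filter, with a minimum of 5 FPKM and at a fold of 1.5, and no setting run gave a member at least 2-fold higher among the expressed members. With a pseudocount of 0.1 the log2 ratio of the nearly silent Irf5 was -1.10 and that of Ifitm2 was 1.03. The median log2 ratio of the members was -0.30 as reported, -0.15 with a pseudocount of 5, -0.050 after centring, -0.040 with no filter and -1.09 with a minimum of 5 FPKM, where Bst2 alone was left. Over all expressed rows the lower count of 621 became 1303 with a pseudocount of 0.1, 148 with a pseudocount of 5, 363 after centring and 349 with a minimum of 5 FPKM, and the higher count of 290 became 166 with a pseudocount of 5. The interferon target lists had 12 genes at least 2-fold lower with a pseudocount of 0.1 and 1 with a pseudocount of 5, against 6 as reported. No paired analysis was possible because the table holds 1 value per group. Without replicate values or depth, no error can be attached to any ratio, and values below 1 FPKM are least certain.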

Other observations

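The OAS1 genes, targets that bind double-stranded RNA, were among the antiviral effectors near the expressed level, and they were singled out after their values were seen. Oas1a was at 0.516 FPKM in maturation and 1.35 FPKM in expansion, and Oas1g was at 0.490 FPKM in maturation and 1.25 FPKM in expansion. Of the 50-base stretches of Oas1a transcripts, 57.6% also occurred in transcripts of another gene, so these rows can share reads. Ly6e, an interferon target on the cell surface, was at 8.51 FPKM in maturation and 17.5 FPKM in expansion.

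Around the members, values of neighbouring rows went with the member in some places and not in others. Fam125a, 5492 bases after Bst2, was at 2.44 FPKM in maturation and 5.87 FPKM in expansion, with a log2 ratio of -0.998 beside -1.09 for Bst2. Rec8, which encodes a meiotic cohesin subunit 8139 bases after Irf9, was at 0.511 FPKM in maturation and 3.97 FPKM in expansion, while Irf9 was at 2.94 FPKM in maturation and 2.72 FPKM in expansion. Rnf31, 313 bases before Irf9, was at 1.16 FPKM in maturation and 1.46 FPKM in expansion. Scaf1, 101 bases after Irf3, was at 3.66 FPKM in maturation and 4.42 FPKM in expansion. Tnpo3, 3507 bases after the nearly silent Irf5, was at 4.84 FPKM in maturation and 5.70 FPKM in expansion. Of the 50-base stretches of Irf5 transcripts, 7.51% also occurred in transcripts of another gene, Tnpo3.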
